A study of Mus musculus with 16 samples.

Results

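The transcripts described here encode the core proteins of the spliceosome and the SR splicing factors. They were taken as every row of the FPKM table whose gene name begins with Snrp, Sf3a, Sf3b, Prpf or Srsf followed by a subunit letter or number, together with U2af1 and U2af2. The rule found 48 gene names on 51 rows, out of 27987 names on 28618 rows. Srsf1, Srsf3 and Snrpc hold 2 rows each, and the row is given wherever one of them is described. Snrpert, which the rule also takes in, is an annotated pseudogene of Snrpe.

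RNA was sequenced from mouse oocytes and eggs (C57BL/6) of wild-type (WT) females and of Psma7 fl/fl;Zp3-Cre females (cKO), which lose the 20S proteasome subunit PSMA7 in their oocytes. Zp3-Cre is active only in growing oocytes, so the rest of the animal keeps the gene. Each genotype was sampled as germinal vesicle (GV) oocytes, taken 44 h after 5 IU PMSG, and as metaphase II (MII) eggs, taken from the oviduct 14 to 16 h after a further hCG injection and freed of cumulus cells with 0.3% hyaluronidase. Females were 3 to 4 weeks old in every group. Each of the 4 groups holds 4 libraries, and each library is, per the labels, a pool of 5 cells. The labels do not say whether pools came from separate females, so the p-values measure the spread between pools.

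FPKM (fragments per kilobase of transcript, scaled to the mapped fragments of a library) is a share of one library. The cDNA was primed with oligo-dT, so the amount of an mRNA and the length of its poly(A) tail cannot be told apart in these values. Steps between the lowest values put the depth at about 10.5 to 15.7 M fragments per library. Psma7 itself was at 142 to 201 FPKM in WT GV oocytes and 11.1 to 17.98 FPKM in cKO GV oocytes, and at 97.7 to 172 FPKM in WT eggs and 13.6 to 59.9 FPKM in cKO eggs, with no overlap at either stage. All 10 oocyte markers were detected in every group. The 15 cumulus and granulosa markers summed to between 17.8 and 24.1 FPKM in every library, against at least 13810 FPKM for the oocyte markers, and the 4 blood and immune markers present summed to at most 10.9 FPKM.

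The spliceosome removes introns from pre-mRNA and is built from small nuclear ribonucleoproteins, each an RNA dressed with a ring of Sm proteins and with proteins of its own. U1 recognises the start of the intron, U2 with the SF3 and U2AF proteins recognises the branch site and the intron's end, and the U4/U6.U5 particle, to which most PRPF proteins belong, brings in the catalytic centre. SR proteins bind exons through RNA recognition motifs and recruit these particles through their arginine-serine tails. A fully grown oocyte stops transcribing before it resumes meiosis, so the mRNAs that encode this machinery are a stored pool, from which some are kept and others are removed as the egg forms.

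Of the 51 rows, 40 averaged at least 1 FPKM over the 16 libraries, 29 at least 10 FPKM and 9 at least 50 FPKM. In WT GV oocytes the highest means were those of Prpf38a (125 FPKM ± 13.8 SD, n = 4), Snrpd2 (100.4 FPKM ± 21.4) and Sf3a3 (96.7 FPKM). Another 10 rows are given here only by their values, because they stayed below the filter of a mean of 1 FPKM in each of the comparisons between genotypes and between stages. Both rows of Srsf1, the rows of Snrpf, Snrpn, Sf3a2, Prpf19, Prpf40b, Srsf12 and Snrpert, and row 2 of Srsf3 make up that group, and the highest value among them in any library was 1.11 FPKM. Genes that all cells use are among these low rows, so no absence of expression is read from them.

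Members together made up 0.297% to 0.326% of the summed FPKM in WT GV oocytes and 0.302% to 0.337% in cKO GV oocytes. The same share was 0.328% to 0.359% in WT eggs and 0.371% to 0.385% in cKO eggs. The 2 ranges in eggs did not overlap, and those in GV oocytes did. Over all rows tested in eggs the median log2 difference between cKO and WT was 0.07, and 81.5% of called rows were higher in cKO. The share was not compared with that of other sets of genes, so the gap is not read as particular to the members.

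The first comparison was that of GV oocytes with MII eggs in WT females, which shows how the stored pool changes during maturation. Members divided evenly. Of 40 rows tested, 15 rose and 15 fell (limma, Benjamini-Hochberg adjusted over all rows), against 26.1% of all 10475 rows that rose and 52.4% that fell. The median log2 difference between egg and GV oocyte was -0.08 over the members and -0.44 over all rows tested. Scaling the libraries to their median ratio raised the median of all rows by 0.23 on the log2 scale in this comparison, and members then counted 16 higher and 14 lower. Of all 10457 rows tested on that scaling, 3481 were higher and 4789 lower.

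Within the Sm ring the transcripts moved in opposite directions. Snrpe, which encodes the SmE protein, was at 20.3, 23.8, 40.0 and 28.0 FPKM in WT GV oocytes and at 120, 135, 106 and 111 FPKM in WT eggs. Snrpg, encoding SmG, was at 56.8, 49.0, 69.4 and 59.5 FPKM in GV oocytes and at 175, 201, 145 and 176 FPKM in eggs. Every egg library lay above every GV library for both. The log2 differences were 2.12 ± 0.18 (SE) for Snrpe (limma adjusted p = 1.17e-06) and 1.57 ± 0.12 for Snrpg (limma adjusted p = 5.92e-07).

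Snrpd2, which encodes SmD2, moved the other way. Its 4 WT GV libraries held 87.0, 82.9, 130 and 102 FPKM and its 4 WT egg libraries 7.46, 10.7, 8.16 and 2.49 FPKM. Snrpb, encoding SmB, fell from 14.7, 10.4, 13.7 and 11.7 FPKM to 1.05, 1.65, 1.36 and 1.43 FPKM. Neither overlapped between the stages. The log2 differences were -3.96 ± 0.37 for Snrpd2 (limma adjusted p = 2.64e-06) and -3.21 ± 0.17 for Snrpb (limma adjusted p = 2.77e-08). Snrpd2 and Snrpd3, both of the ring, had means of 100.4 and 94.5 FPKM in WT GV oocytes, against 7.19 and 156 FPKM in WT eggs.

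The remaining ring members were Snrpd1 (SmD1) and Snrpd3 (SmD3), which both rose. Snrpd1 was at 21.4, 18.1, 30.6 and 22.0 FPKM in WT GV oocytes and at 38.0, 38.8, 29.2 and 37.9 FPKM in WT eggs. Replicate 3 was the highest GV library and the lowest egg library, so the stages overlapped there, and the log2 difference was 0.66 ± 0.16 (limma adjusted p = 0.00262). Snrpd3, chosen after its values were seen, had means of 94.5 and 156 FPKM and a log2 difference of 0.72 ± 0.10. Snrpf (SmF) was listed at 0 FPKM in 13 of 16 libraries and at no more than 0.0859 FPKM in any. Its annotated transcript shares sequence with that of the overlapping gene Ccdc38, so its level is uncertain. Snrpn, which encodes the imprinted SmB-like protein, lay between 0.0320 and 0.466 FPKM.

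**Figure D1:**
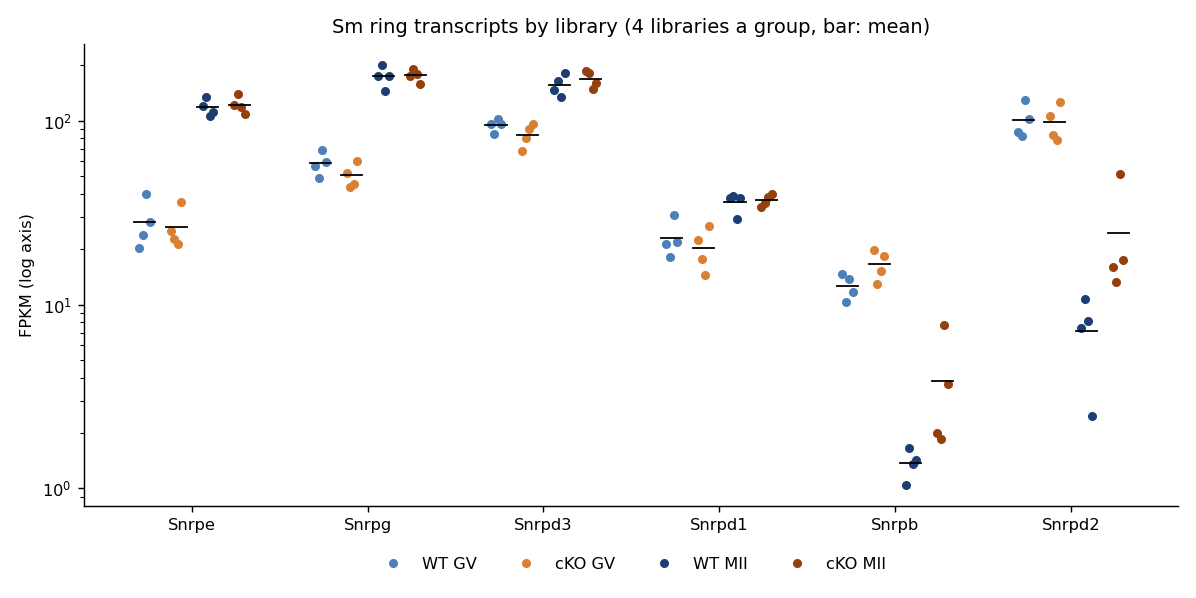
FPKM (log axis) of the 6 tested Sm ring transcripts in each library, with 4 points and a mean bar for each of the 4 groups. Snrpe, Snrpg, Snrpd3 and Snrpd1 were higher in eggs of both genotypes, whereas Snrpb and Snrpd2 were lower, with cKO MII replicate 3 standing highest among the eggs for both.

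Among the proteins particular to U1 and U2, Snrpb2, a protein of U2, rose from 21.2, 22.2, 25.0 and 22.8 FPKM in WT GV oocytes to 56.0, 50.3, 47.0 and 55.6 FPKM in WT eggs. Snrpa, a protein of U1, fell from 18.4, 12.5, 16.6 and 15.1 FPKM to 5.36, 5.53, 5.43 and 4.73 FPKM. Both sets of libraries were fully apart, with log2 differences of 1.20 ± 0.09 for Snrpb2 (limma adjusted p = 4.39e-07) and -1.56 ± 0.13 for Snrpa (limma adjusted p = 9.96e-07). Snrpa1, whose protein is the partner of that of Snrpb2 on U2 RNA, had means of 82.0 and 81.9 FPKM and did not pass the test. Row 2 of Snrpc, a protein of U1, fell by 3.06 ± 0.73 on the log2 scale, but its WT GV libraries held 60.4, 42.6, 52.3 and 5.61 FPKM, and replicate 4 lay within the range of the eggs. Transcripts of 3 annotated copies (Gm2991, Gm8849 and Gm8974) match Snrpc at 95% identity or more over at least 50% of its length, and those of 2 copies match Snrpa, so reads of both genes may be divided among copies.

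In the SF3 and U2AF group 3 of 10 tested rows rose and 4 fell. Sf3b1, whose protein clamps the branch site and is the target of several splicing inhibitors, rose from 79.8, 82.9, 90.3 and 80.7 FPKM to 137, 138, 147 and 139 FPKM. U2af1, which reads the AG at the end of the intron, rose from 15.9, 14.4, 20.4 and 19.5 FPKM to 46.7, 40.4, 39.6 and 34.5 FPKM, and it too has 2 near-identical annotated copies. Sf3a1, which ties SF3a to U2, rose from a mean of 6.70 to 9.59 FPKM. The log2 differences were 0.75 ± 0.07 for Sf3b1 (limma adjusted p = 2.6e-06), 1.21 ± 0.13 for U2af1 (limma adjusted p = 9.03e-06) and 0.53 ± 0.14 for Sf3a1 (limma adjusted p = 0.00439).

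Subunits of the same SF3 complexes were among those that fell. Sf3b3, a WD40-repeat scaffold that sits against Sf3b1, went from 28.5, 29.2, 19.2 and 29.2 FPKM to 6.74, 7.96, 6.94 and 6.99 FPKM, a log2 difference of -1.87 ± 0.14 (limma adjusted p = 5.03e-07). Sf3a3 fell by 0.62 ± 0.08 and Sf3b6, which lies next to the branch point, fell by 0.61 ± 0.12 on the log2 scale. U2af2, the partner of U2af1 that binds the polypyrimidine tract, was near the filter at 0.590 to 1.08 FPKM in GV oocytes and 1.05 to 1.43 FPKM in eggs and did not pass.

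Of the PRPF rows 3 of 11 rose and 5 fell. Prpf31, a protein of the U4/U6 particle that is mutated in a form of retinitis pigmentosa, fell from 7.74, 7.02, 5.68 and 8.89 FPKM to 0.643, 0.696, 1.00 and 0.652 FPKM. Prpf38a, a factor needed for activation of the assembled spliceosome, fell from 114, 122, 145 and 120 FPKM to 24.8, 23.6, 20.7 and 32.3 FPKM. The log2 differences were -2.86 ± 0.15 for Prpf31 (limma adjusted p = 2.53e-08) and -2.32 ± 0.13 for Prpf38a (limma adjusted p = 5.3e-08). Because values were floored at 1 FPKM, the difference of Prpf31 understates its fall.

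Prpf4, another U4/U6 protein, fell by 1.75 ± 0.20, and Prpf8, the large protein that cradles the catalytic centre, fell by 0.79 ± 0.11, from a mean of 12.7 to 7.40 FPKM. Prpf4b, a kinase that acts on the tri-snRNP, was at 3.12 FPKM in WT GV oocytes and 3.17 FPKM in WT eggs and did not pass. Prpf19, the ubiquitin ligase for which a whole spliceosomal complex is named, stayed between 0.0206 and 0.194 FPKM in all libraries.

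Of 9 tested SR rows 4 rose and 2 fell. Srsf5 was at 33.1, 36.3, 32.8 and 41.7 FPKM in WT GV oocytes and at 87.6, 86.5, 86.4 and 81.6 FPKM in WT eggs. Srsf7, which links splicing to mRNA export, went from 27.2, 21.2, 30.3 and 23.0 FPKM to 55.5, 57.9, 54.4 and 66.1 FPKM. Their log2 differences were 1.25 ± 0.09 for Srsf5 (limma adjusted p = 3e-07) and 1.21 ± 0.12 for Srsf7 (limma adjusted p = 4.02e-06). Srsf5 has 1 near-identical annotated copy.

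Row 1 of Srsf3 rose by 0.92 ± 0.22 and Srsf10, a splicing repressor when dephosphorylated, rose by 0.63 ± 0.08 on the log2 scale. Srsf2 fell from 50.8, 43.5, 40.1 and 49.6 FPKM to 19.2, 19.3, 21.4 and 25.3 FPKM (log2 difference -1.11 ± 0.12, limma adjusted p = 5.76e-06). Row 2 of Srsf1 lay below the filter and was at 0.624 to 0.844 FPKM in WT GV oocytes and 0.0887 to 0.144 FPKM in WT eggs. These ranges did not overlap, and a two-sided exact permutation test gave p = 0.0286, the smallest that 4 libraries against 4 allow, which became 0.137 after Benjamini-Hochberg adjustment over the 43 such tests of low rows.

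The same comparison in cKO females tested 41 rows, of which 15 rose and 15 fell, against 23.0% of all 10748 rows that rose and 51.0% that fell. The median log2 difference was 0.06 over the members and -0.42 over all rows. With libraries scaled to their median ratio, which raised the median of all rows by 0.20 on the log2 scale, the members counted 18 higher and 13 lower. Of all 10630 rows tested on that scaling, 3127 were higher and 4735 lower. The 15 rows that rose in WT were the 15 that rose in cKO, and 12 rows fell in both. Of all rows tested, 78.5% were called in WT and 74% in cKO, and the share called alike in both was not counted. Snrpe rose by a log2 difference of 2.24 ± 0.17 (limma adjusted p = 4.36e-06), Snrpg by 1.81 ± 0.12 (limma adjusted p = 2.33e-06) and Snrpb2 by 1.42 ± 0.10 (limma adjusted p = 3.59e-06). At the other end, Prpf31 fell by 2.44 ± 0.23 and Snrpb by 2.35 ± 0.42 on the log2 scale, and Snrpd2 fell from a mean of 98.3 to 24.6 FPKM (limma adjusted p = 0.000652).

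The 3 rows that fell in WT and did not pass in cKO were row 2 of Snrpc, Sf3b6 and Sf3b2. Conversely, 2 rows fell in cKO and did not pass in WT, Srsf6 (log2 difference -0.69 ± 0.12, limma adjusted p = 0.000565) and Srsf11 (-0.57 ± 0.18, limma adjusted p = 0.0151), both named after their values were seen. Row 1 of Snrpc also fell in cKO, from a mean of 2.02 to 0.289 FPKM (limma adjusted p = 0.000116). There it passed the filter only through its GV libraries, and every egg value was floored at 1 FPKM. Its mean over the WT libraries lay under the filter. It fell in WT as well, from 0.657 to 2.57 FPKM in GV oocytes to 0 to 0.299 FPKM in eggs, without overlap (two-sided exact permutation test, Benjamini-Hochberg adjusted p = 0.137). Whether the change differed between genotypes is given by the interaction test. Sf3b6 averaged 47.6 FPKM in cKO GV oocytes and 43.4 FPKM in cKO eggs, with cKO MII replicate 3 at 56.7 FPKM and the other egg libraries at 34.7, 36.6 and 45.4 FPKM. Sf3b2, chosen after its values were seen, is close to the threshold in both genotypes, with log2 differences of -0.33 ± 0.11 in WT and -0.34 ± 0.15 in cKO. The call of Sf3b2 in WT was lost without WT GV replicate 1 or 4 and without WT MII replicate 2 or 4 (limma adjusted p = 0.0529 to 0.0672). In cKO the call of Sf3a3 (log2 difference -0.28 ± 0.11) was lost without any of cKO GV replicates 2, 3 and 4 and cKO MII replicates 2 and 4, where the difference ranged from -0.30 to -0.21.

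**Figure D2:**
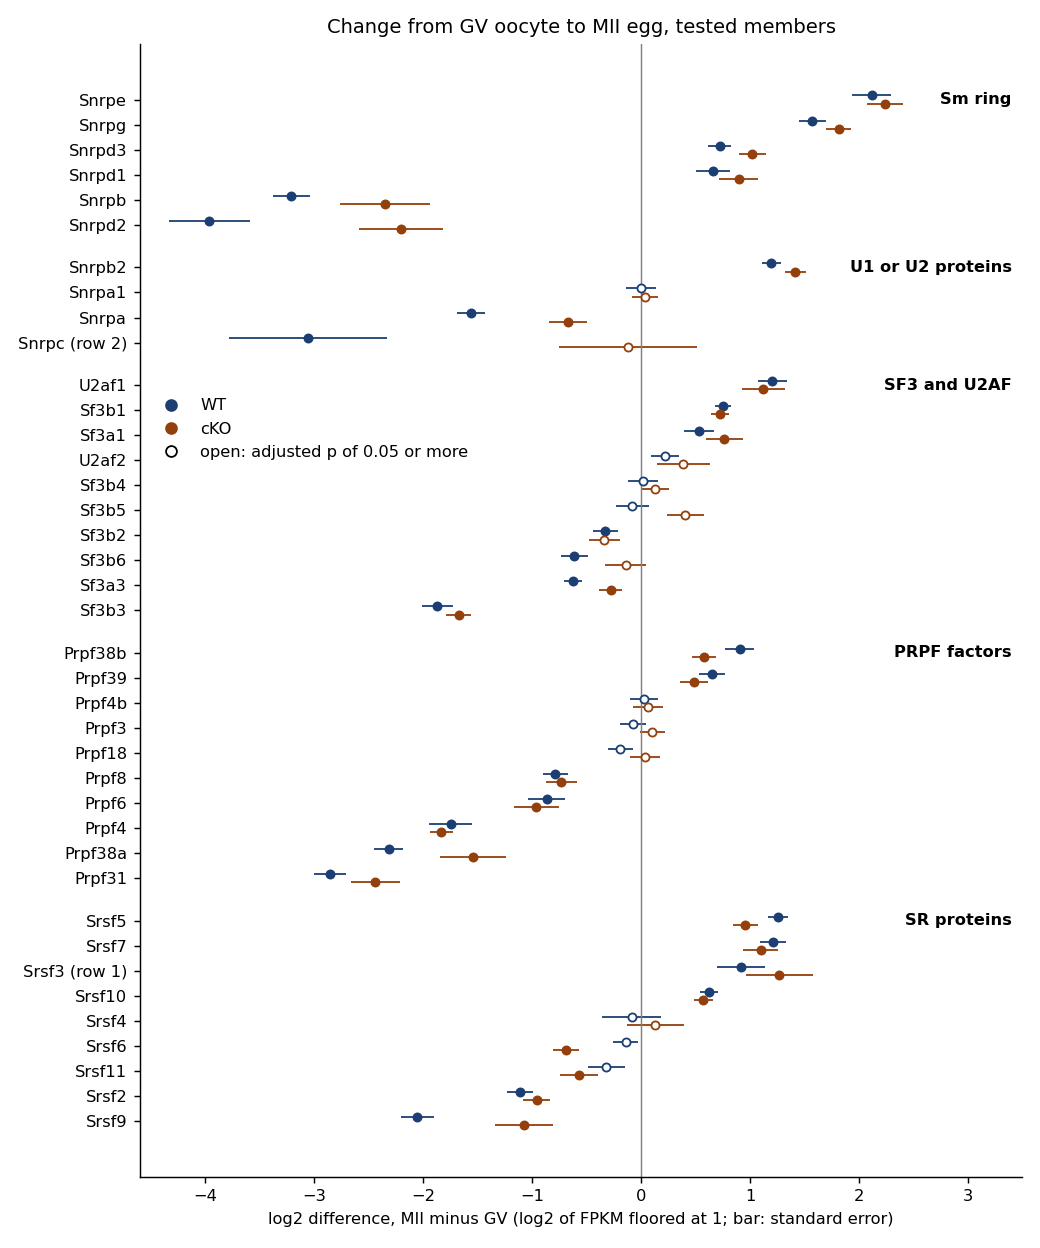
Fitted log2 difference between MII eggs and GV oocytes (horizontal axis, FPKM floored at 1) for 39 of the 40 members tested in WT, in WT (blue) and cKO (brown), with standard errors and open points where the limma adjusted p was 0.05 or more. Each functional group holds members that rose and members that fell, from 2.12 for Snrpe to -3.96 for Snrpd2 in WT.

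Oocyte mRNAs that carry a cytoplasmic polyadenylation element close to the end of their 3′ UTR can gain a longer tail as meiosis resumes, and oligo-dT priming sees that tail. The last 100 bases of the 3′ UTR were therefore searched on the transcript strand for the element written TTTTAT or TTTTAAT, which may overlap each other, and for the polyadenylation signal AATAAA, in 1 coding transcript per gene of GENCODE M21 (GRCm38). Of 19241 genes with such a window, 17.8% held the element and 64.6% the signal. Among all rows with a window in the WT comparison, the element was found in 30.7% of 2229 rows that rose, 23.5% of 1715 that did not pass and 14.4% of 4304 that fell. Among the members it was found in 4 of 15 that rose, 2 of 10 that did not pass and 2 of 14 that fell.

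The windows below show ends from the Sm ring and the SF3 complexes and that of Prpf8, with the element and the signal in capitals. The first is Snrpd3 (chr10:75537342-75537371, plus strand), the ring member that rose and holds the element beside its signal. Sf3b1 (chr1:54985217-54985246, minus strand) and Sf3a1 (chr11:4182500-4182529, plus strand) also rose and hold it. Prpf8 (chr11:75509418-75509447, plus strand) and Sf3a3 (chr4:124732386-124732415, plus strand) fell although they hold it. Snrpe (chr1:133603882-133603911, minus strand), which rose, and Snrpb (chr2:130171644-130171673, minus strand), which fell, both hold the signal alone. All lie in 3′ UTRs, are read in GRCm38 and are written 5′ to 3′ on the transcript strand.
Snrpd3: ggtttaTTTTATtgtattAATAAAtggtgc
Sf3b1: ttgtatTTTTAATatttgttgtatggtgcc
Sf3a1: tatcatTTTTATatgtattatgtataaatt
Prpf8: aacaaaatgtAATAAATTTTATaaatagtg
Sf3a3: tctttgTTTTATattaaaaagatctgtggg
Snrpe: ggtgacAATAAAtgctgtaggaagtttttg
Snrpb: gtttatAATAAActaagagactgttataca

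The element was thus in 26.7% of the members that rose and 14.3% of those that fell, against 30.7% and 14.4% of all rows. Snrpe and Snrpg, the members with the largest rise in WT, do not hold it in this window. Whether the element bears on the change of any member was not tested. In Prpf8 the element follows directly on the signal, and in Sf3a3 it lies ahead of a signal that starts 43 bases from the end. A match is a description of letters in the chosen transcript, and the transcripts in these oocytes may end elsewhere.

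The genotype comparison in GV oocytes asked whether members differed before maturation. No member passed the test (limma, 41 rows tested, smallest adjusted p = 0.211), against 0.0994% of 11062 rows that were higher in cKO and 0.0181% that were lower. At an unadjusted p below 0.05, 5 members were higher and 1 was lower, against 7.62% and 3.06% of all rows. The differences ran from a log2 value of -0.79 for row 2 of Snrpc to 0.66 for row 1 of Snrpc, with a median of 0.09 and a median SE of 0.14.

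The 4 cKO libraries lay above the 4 WT libraries for 3 of the 41 members, Srsf2, U2af2 and Srsf6, the last named after its values were seen, against 4.25% of all rows. Srsf2 was at 50.8, 43.5, 40.1 and 49.6 FPKM in WT and 61.5, 59.8, 54.2 and 58.3 FPKM in cKO (log2 difference 0.35 ± 0.10, limma adjusted p = 0.211). U2af2 was at 1.00, 0.590, 0.836 and 1.08 FPKM in WT and 1.15, 1.11, 1.23 and 1.23 FPKM in cKO, all near the filter (0.21 ± 0.13). Snrpb (0.39 ± 0.16) and Snrpb2 (-0.24 ± 0.11) overlapped between genotypes. Sf3b1, at means of 83.4 and 81.4 FPKM, and Snrpd2, at 100.4 and 98.3 FPKM, differed by less than their SE.

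In eggs 3 members were higher in cKO and 1 was lower out of 39 tested, against 6.53% of 9492 rows that were higher and 1.49% that were lower (limma, Benjamini-Hochberg adjusted over all rows). At an unadjusted p below 0.05, 16 members were higher and 1 was lower, against 20.6% and 8.80% of all rows. The median log2 difference between cKO and WT eggs was 0.19 over members and 0.07 over all rows. On median-ratio scaling the member counts stayed at 3 and 1, whereas the share of higher rows among all called rows went from 81.5% to 70.7%.

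Snrpa, whose protein binds U1 RNA (chromosome 7, 27187005 to 27196271, GRCm38), was at 5.36, 5.53, 5.43 and 4.73 FPKM in WT eggs and at 11.9, 8.28, 12.3 and 8.38 FPKM in cKO eggs. Each cKO library was above each WT library, the log2 difference was 0.93 ± 0.16 and the limma adjusted p was 0.0207. In GV oocytes the means had been 15.7 FPKM in WT and 16.1 FPKM in cKO. Prpf31 (chromosome 7, 3629985 to 3642486) was at 0.643, 0.696, 1.00 and 0.652 FPKM in WT eggs and at 1.47, 1.22, 1.75 and 1.55 FPKM in cKO eggs. These too did not overlap (log2 difference 0.57 ± 0.14 with WT values floored at 1 FPKM, limma adjusted p = 0.0443).

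The table does not say which isoform or locus each of the 2 rows of Snrpc stands for, and the gene of that name lies on chromosome 17 (27838150 to 27851968). Row 2 was at 7.23, 1.44, 5.23 and 2.89 FPKM in WT eggs and at 9.31, 11.7, 22.6 and 24.2 FPKM in cKO eggs. The log2 difference was 2.14 ± 0.51 (limma adjusted p = 0.0397), in a row whose libraries also spread from 4.11 to 60.4 FPKM in GV oocytes.

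These calls lie near the threshold. In 1 fit of all 16 libraries Prpf31 and row 2 of Snrpc did not pass (limma adjusted p = 0.0643 and 0.073), while Snrpd2, Snrpb, Prpf38a, Srsf2 and Srsf9 passed beside Snrpa, and row 2 of Snrpc also did not pass without the filter on low values (limma adjusted p = 0.059). Without any single one of the 4 WT MII replicates, 0 members passed. Calls over all rows fell as well in these fits, from 620 higher and 141 lower. With replicates 1 to 4 left out in turn, 12, 109, 3 and 31 rows were higher and 0, 5, 0 and 8 lower. Without cKO MII replicate 1, 3 or 4 the count of higher members was 1, which was Snrpa. Over all rows 166, 287 and 360 were higher in those fits. Without cKO MII replicate 2, 6 members were higher and 1 lower, against 1024 and 136 of all rows. Over the 8 such fits the log2 difference ran from 0.84 to 1.03 for Snrpa, from 0.49 to 0.67 for Prpf31 and from 1.71 to 2.49 for row 2 of Snrpc.

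**Figure D3:**
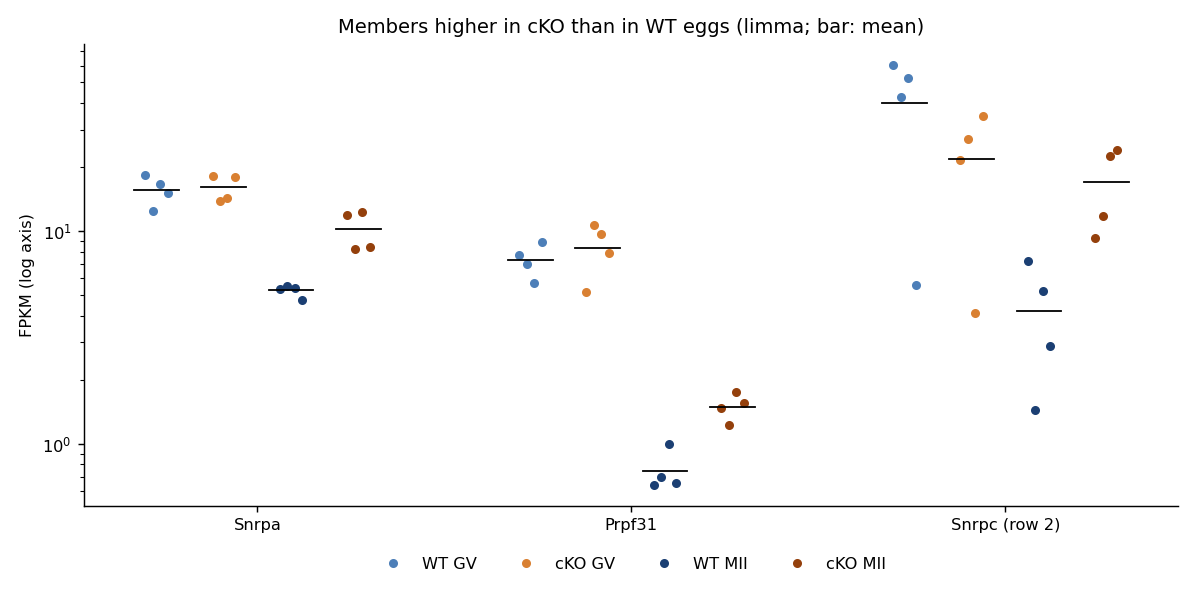
FPKM (log axis) in each library, with 4 points and a mean bar per group, of the 3 members that passed the genotype test in eggs with higher levels in cKO. Snrpa, Prpf31 and row 2 of Snrpc were higher in all 4 cKO egg libraries than in any WT egg library.

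Without regard to the test, 10 of the 39 members had all cKO egg libraries above all WT egg libraries, and 2 had them all below. Over all 9492 rows these shares were 13.6% and 7.06%. Besides the members called, the higher ones were Snrpb, Snrpd2, Sf3b3, Sf3b6 and Srsf2, with Sf3b4 and Srsf9, which are named after their values were seen, and the lower one was Sf3b1, at means of 140 FPKM in WT and 134 FPKM in cKO. Both Snrpd2 and row 2 of Snrpc, 2 members in all, exceeded a 3-fold difference between group means, as did 1.76% of all rows in that direction. Snrpd2 did not exceed it without cKO MII replicate 3 (2.17-fold) or without WT MII replicate 4 (2.81-fold), which leaves 1 member, and without cKO MII replicate 1 or 2 Snrpb exceeded it as well, which makes 3.

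The 15 members that fell in WT were also expressed as the percentage of the GV level of their own genotype that was left in eggs. These members were chosen on the WT egg libraries, which the genotype comparison shares, so the values are a description and carry no test. WT and cKO eggs held 7.16% ± 3.41 and 25.0% ± 18.3 (SD, n = 4) of the GV level of Snrpd2, 10.8% ± 1.98 and 23.0% ± 16.5 of that of Snrpb, and 20.2% ± 3.94 and 37.6% ± 17.6 of that of Prpf38a. The same values for Snrpa were 33.6% ± 2.30 and 63.5% ± 13.6. Not all 15 were higher in cKO eggs. Prpf8 was at 58.1% in WT and 60.4% in cKO eggs, and 2 members named after their values were seen, Prpf6 (53.5% and 51.1%) and Sf3b2 (79.3% and 79.2%), had the lower mean in cKO.

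In cKO MII replicate 3, Snrpd2 was at 51.5 FPKM against 16.1, 13.3 and 17.5 FPKM in the others, and Snrpb at 7.75 FPKM against 2.01, 1.85 and 3.72 FPKM. Replicate 3 was the highest egg library of all for 9 of the 15 members, cKO MII replicate 1 for 5 and cKO MII replicate 4 for 1. The same count over all rows that fell in WT was not made, so it cannot be said whether this is particular to the members. Without replicate 3 the means left in cKO eggs were 15.9% for Snrpd2, 15.2% for Snrpb and 32.2% for Prpf38a, the last being divided between 68.9 FPKM in replicate 4 and 31.8 and 27.7 FPKM in replicates 1 and 2. In the limma test these members did not pass, with adjusted p = 0.0697 for Snrpd2, 0.0912 for Snrpb and 0.111 for Prpf38a, whereas in 1 fit of all 16 libraries the adjusted p was 0.0127, 0.0215 and 0.0302.

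**Figure D4:**
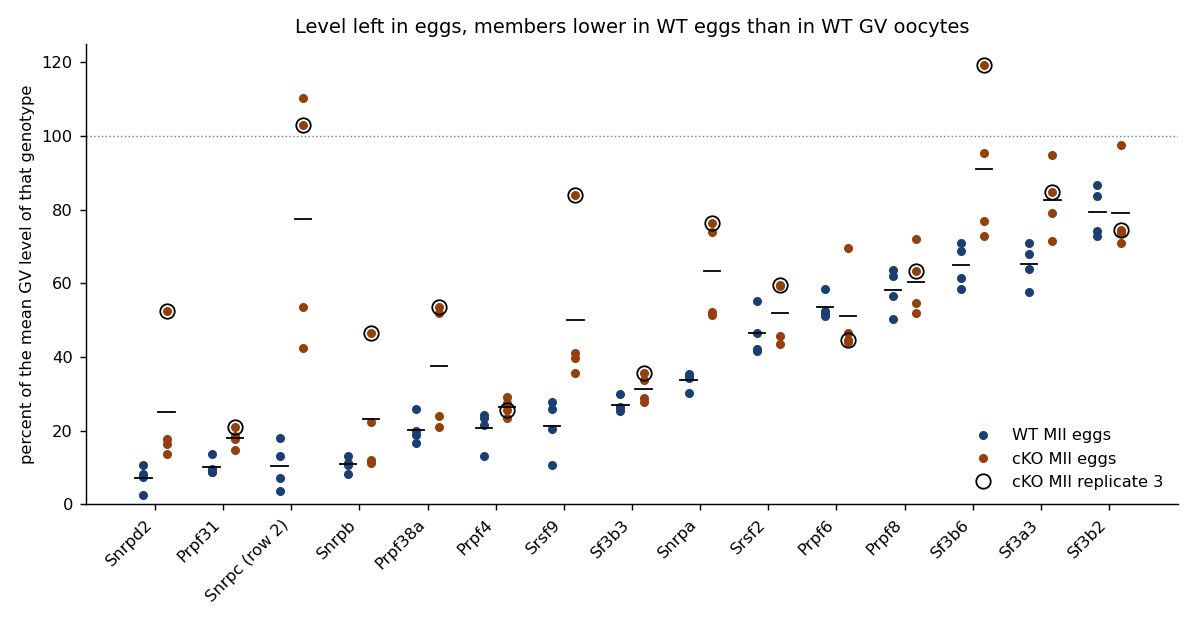
Level in each MII egg library as a percentage of the mean GV level of the same genotype (vertical axis), for the 15 members that fell in WT, with WT in blue, cKO in brown, bars at the means and cKO MII replicate 3 ringed. For Snrpd2 the ringed library lies at 52.4% and the other cKO libraries at 13.6% to 17.8%, and all 4 exceed the WT libraries.

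Of the members that rose during maturation, Snrpe averaged 118 and 122 FPKM in WT and cKO eggs, Snrpg 174 and 176 FPKM, Snrpb2 52.2 and 51.5 FPKM, and U2af1 40.3 and 42.3 FPKM. Srsf5 averaged 85.5 and 82.4 FPKM. The log2 differences of these 5 lay between -0.06 and 0.06 with SEs of 0.07 to 0.13, and none passed the test. Not every member that rose was so close. Row 1 of Srsf3 differed by 0.456 ± 0.280 and Sf3a1 by 0.296 ± 0.125 (limma adjusted p = 0.307 and 0.152). Prpf39, named after its values were seen, differed by -0.200 ± 0.125 (limma adjusted p = 0.316).

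Whether the genotype difference changed from GV oocyte to egg was tested as an interaction over all 16 libraries. No member passed (limma, 40 rows tested), against 1.26% of 10615 rows in either direction, and at an unadjusted p below 0.05 there were 6 higher and 1 lower, against 12.7% and 5.03% of all rows. Snrpa came closest, at a log2 interaction of 0.89 ± 0.22 (limma adjusted p = 0.0537). It passed when libraries were scaled to their median ratio and when WT GV replicate 2, cKO MII replicate 2 or cKO MII replicate 4 was left out, giving 1 member each time. Snrpd2 had an interaction of 1.76 ± 0.59 (limma adjusted p = 0.134) and row 2 of Snrpc one of 2.93 ± 1.08 (limma adjusted p = 0.164).

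A further 10 lists of other splicing genes were read beside the members. Over 109 listed rows tested in WT maturation 38 rose (34.9%) and 47 fell (43.1%), with a median log2 difference of -0.22. Of all rows 26.1% rose and 52.4% fell, with a median of -0.44. In the related Lsm ring, which caps U6 RNA or starts mRNA decay, 2 of 8 rows rose and 3 fell. Lsm6 fell from a mean of 13.1 to 2.77 FPKM and Lsm5 rose from 146 to 201 FPKM. Among 11 rows of U1, U5 and tri-snRNP proteins outside the rule, 3 rose and 7 fell, with a median of -1.36. Snrnp70, the U1-70K protein, rose from 10.3 to 31.9 FPKM, and Eftud2, the U5 GTPase that works with Prpf8, fell from 27.3 to 9.07 FPKM. The helicases had 1 row that rose and 5 of 7 that fell, snRNP assembly factors 1 and 8 of 11, and minor spliceosome proteins 1 and 6 of 9.

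Counts in the remaining lists stand beside 26.1% of all rows that rose and 52.4% that fell, with a median of -0.44. Of 20 hnRNP rows, 10 rose and 4 fell, with a median of 0.37. Of 14 rows of SR-related proteins and SR protein kinases, 7 rose and 3 fell, with a median of 0.38. The exon junction complex had 3 that rose and 2 that fell of 6 (median 0.75), the Prp19 complex 6 and 6 of 13 (median -0.22), and U2-associated and branch site proteins 4 and 3 of 10 (median near 0).

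In GV oocytes 0 of 111 listed rows passed the genotype test (limma), against 0.0994% of all rows that were higher and 0.0181% that were lower. At an unadjusted p below 0.05, 3 were higher and 1 lower, against 7.62% and 3.06% of all rows. In eggs 9 of 103 were higher in cKO and 0 lower, which is 8.74% and 0% against 6.53% and 1.49% of all rows. Of these, 2 belong to the Lsm ring. Lsm3 was at 39.1, 31.5, 28.0 and 31.9 FPKM in WT eggs and at 57.6, 52.5, 87.0 and 61.7 FPKM in cKO eggs (log2 difference 0.97 ± 0.16, limma adjusted p = 0.0207). Lsm6 was at 2.79, 2.90, 2.83 and 2.55 FPKM against 6.04, 5.03, 7.70 and 4.40 FPKM (1.04 ± 0.17, limma adjusted p = 0.0215). Both also passed the interaction test, at 1.16 ± 0.25 for Lsm3 and 1.03 ± 0.20 for Lsm6, and the libraries of the 2 genotypes were apart for each in eggs and overlapped in GV oocytes. Of 109 listed rows 4 passed that test (3.67%), against 1.26% of all rows. The others, named after their values were seen, lie outside the Lsm ring. They were row 1 of Usp39 (0.705 ± 0.12, limma adjusted p = 0.0148) and row 2 of Ddx39b (1.66 ± 0.25, limma adjusted p = 0.0112), both also higher in cKO eggs. How the calls of listed rows hold with 1 library left out is not given here. Over all rows such fits gave 3 to 1024 higher calls in eggs and 37 to 605 in the interaction.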

How the data were processed

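The 16 Smart-seq2 libraries were grouped by genotype and stage from the sample labels. The authors deposited 1 table of FPKM values, made per the submitters' processing notes with TopHat2 2.1.1 and Cufflinks 2.2.1 on mm10. The annotation is not given in the sources used here. ERCC spike-in RNA was added to the lysis buffer, and 0 ERCC rows are in the table, so all comparisons are of shares of a library. The labels give no batch. Depth per library, at 10.5 to 15.7 M fragments, was estimated from the steps of FPKM values in long genes with 1 annotated transcript. Rows far below 1 FPKM rest on few fragments.

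Values below 1 FPKM were set to 1 and tested on the log2 scale with limma 3.58.1 (R 4.3.3, empirical Bayes with trend) on the 8 libraries of each comparison, or on all 16 for the interaction, over rows with a mean of at least 1 FPKM. Benjamini-Hochberg adjustment ran over all rows tested, with a threshold of 0.05. Such log2 differences understate changes of low rows. The steps were tested on simulated data. Rows under the filter were compared by two-sided exact permutation tests (scipy 1.17.1). Transcript ends came from GENCODE M21 (GRCm38), and copies from blastn 2.17.0+, at 95% identity or more. The window of Snrpd1 and the values of 1 other member are not reported here; that member stays in the counts.

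Named members were all those that passed between genotypes, the 5 highest and 5 lowest in each maturation comparison, a set list of 19 members and the 3 highest in WT GV oocytes, 29 genes in all. The members and lists were chosen with earlier results of these data known. Alternatives were a floor of 0.1 FPKM, median-ratio scaling, no filter, a replicate block, rows summed by name, 1 fit of all libraries and each library left out.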

Additional observations from a re-analysis of the deposited data

Results flagged for a closer look

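The libraries of each group were screened for a value far from the other 3, over 105 sets of 4 libraries from the named members, and 6 were found. Chance alone gives about 1 in 20 such sets. Snrpd2 was at 51.5 FPKM in cKO MII replicate 3 against 13.3 to 17.5 FPKM in the other cKO egg libraries. Prpf31 was at 1.00 FPKM in WT MII replicate 3 against 0.643 to 0.696 FPKM, and Snrpd1 was at 29.2 FPKM in the same library against 37.9 to 38.8 FPKM. Sf3b3 was at 19.2 FPKM in WT GV replicate 3 against 28.5 to 29.2 FPKM, and row 1 of Snrpc was at 2.57 FPKM in WT GV replicate 4 against 0.657 to 0.943 FPKM. Sf3a3 was at 104 FPKM in cKO GV replicate 4 against 87.1 to 89.3 FPKM. The part of each library in these values was not tested.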

How the results depend on the processing

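The count of members that passed in eggs was the result that moved. From 3 higher and 1 lower it went to 1 and 0 with a replicate block and to 6 higher in 1 fit of all 16 libraries. In that fit Prpf31 and row 2 of Snrpc were lost and 5 others gained. With 1 library left out the count ranged from 0 to 6 higher and from 0 to 1 lower. Higher calls over all rows moved the same way, from 620 of 9492. They were 101 with the block, 1278 of 10615 in the fit of all 16 and 3 to 1024 with 1 library left out. The cause was not tested. The replicate block pairs libraries by number alone, since deviations of same-numbered libraries from their group means correlated at -0.496 to 0.285 over rows, and it left the maturation counts at 15 and 14 in WT and 14 and 14 in cKO. The count over 3-fold in eggs, 2 members, ranged from 1 to 3 with 1 library left out, an alternative chosen after seeing the data. For the interaction, 0 members became 1 on median-ratio rescaling, and leaving out 1 library gave 0 to 1 higher. Over all rows the higher interaction calls went from 114 to 137 on rescaling, and leaving out 1 library gave 37 to 605. Counts of members in GV oocytes and in both maturation comparisons stayed within 1.5 times under every alternative run, and no called member reversed its direction under any of them. Calls of single members were lost on median-ratio rescaling for Sf3b2 in WT and for Sf3a3 and Srsf11 in cKO maturation, and for row 1 of Snrpc in cKO when its rows were summed. With 4 libraries a group and no counts, rows near 1 FPKM, such as Prpf31 and U2af2, are the least certain.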
